A study of Rattus norvegicus with 8 samples.

Results

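The genes examined were the ligands and receptors of axon guidance: semaphorins, plexins, neuropilins, netrins with their UNC5 and neogenin receptors, Slits, Robo receptors, ephrins, Eph receptors and the Nogo receptor gene Rtn4r. Members were matched by gene symbol. Of 70 matching symbols, 64 had a normalized read count of 10 or more in at least 2 libraries, among 16478 genes that met the same minimum. The 64 members comprised 33 ligands and 31 receptors. The symbols and the minimum count used no group labels, but the members were chosen with earlier results of these data known. A normalized read count is the number of reads on a gene divided by a size factor of its library, and every value below without another unit is a normalized read count.

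The coding transcriptome was measured by bulk RNA-seq in sciatic nerve tissue of female outbred Sprague Dawley rats (Envigo) aged 3 to 6 months. PEG-fused peripheral nerve allografts (PNAs, n = 3) and negative control PNAs without PEG (NC, n = 3) were taken 14 days after the operation, and unoperated nerves (Unop, n = 2) gave the baseline. In both operated groups a segment of the sciatic nerve was replaced by that of an unmatched, non-immunosuppressed donor rat with sutures and methylene blue, and only the PEG-fused PNAs also received polyethylene glycol, a membrane fusogen. Each library came from 1 rat and held 32472925 to 39959620 reads on genes, and values are given in the order of replicates 1, 2 and 3.

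Guidance cues are secreted or membrane-bound proteins that attract or repel growing axons, and the same ligands and receptors also steer blood vessels, Schwann cells and immune cells. Semaphorins signal through plexins, with neuropilins as co-receptors for most class 3 members, netrins through DCC, neogenin and UNC5 receptors, Slits through Robo receptors, and ephrins through Eph receptors. The cell bodies of sciatic axons lie outside the nerve, so most transcripts of the tissue come from Schwann cells, fibroblasts, perineurial, vascular and immune cells. In bulk tissue, fewer cells of a type and less RNA per cell cannot be told apart.

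The cell makeup of the libraries differed between groups. The summed normalized count of 9 Schwann cell markers measured was 94016 to 103455 in PEG-fused PNAs, 35677 to 95585 in NC PNAs and 2791359 to 3280733 in Unop nerves, and 8 T cell markers summed to 1859 to 5310, 21719 to 41524 and 219 to 415. No member of either list was at 0 in all libraries. Sums of 8 fibroblast markers were 691712 to 983611 in PEG-fused PNAs, 390159 to 584269 in NC PNAs and 373597 to 501762 in Unop nerves. Those of 8 pericyte and smooth muscle markers were 21709 to 26218, 12839 to 17593 and 47183 to 54181. In PEG-fused against NC PNAs, 4 and 6 of these 8 were called higher and 0 lower. Their part in the levels of the members was not tested. NC 1 and NC 3 stood apart in 7 skeletal muscle fibre markers, with sums of 668152 and 245513 beside 10569 in NC 2 and 2790 to 36294 in the other groups. This order, NC 1 above NC 3 above NC 2, was also that of 14 members, most widely of Epha7, at 65.2, 8.61 and 51.1, Unc5c, at 109.02, 36.6 and 50.2, and Sema6c, at 347, 138 and 288. The share of all genes tested with this order was not counted, and a link of these members to muscle was not tested. Of the 14, Epha2, Epha4, Ephb3, Ephb4, Plxnb1, Sema3c, Slit2 and Unc5c were called higher in PEG-fused than in NC PNAs, and Epha7, Ephb1, Plxna2, Sema3g, Sema6c and Sema6d were not called. Without NC 1 and NC 3 together, an alternative chosen after seeing the data, the log2 fold change of each of the 8 was larger. That rise was fixed by the selection, because NC 2 was the lowest NC library in all 14, so it does not test the part of the muscle-rich libraries.

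Guidance genes were more often higher than lower in PEG-fused PNAs. Against NC PNAs, 24 of the 64 members (37.5%) were called higher at an adjusted p under 0.05, beside 15.0% of all genes tested, and 5 (7.81%) were called lower, beside 13.9%. The median log2 fold change was 0.44 over the members and 0.00 over all genes. Differentially expressed genes (DEGs), which also had a log2 fold change beyond 1 in size, numbered 11 higher (17.2%, all genes 4.41%) and 4 lower (6.25%, all genes 7.14%). Of the 11 higher DEGs, 9 encode ligands. The 11 were Ntn5, Unc5c, Ntn1, Sema3d, Efna4, Ntn3, Rtn4r, Sema5a, Sema3b, Sema3e and Sema3c, and the 4 lower ones were Sema4d, Unc5a, Sema4a and Ephb6. Without PEG 2, 16 members were called higher and 4 lower, beside 8.27% and 8.44% of all genes. Without NC 1 and NC 3 together, 17 members were called higher and 7 lower, beside 10.2% and 9.62% of all genes. That fit leaves NC 2 as the lone NC library, as those without Unop 1 or Unop 2 leave 1 Unop nerve, and the lone library is then assumed to vary like those of the other groups, which alone give its spread.

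**Figure D1:**
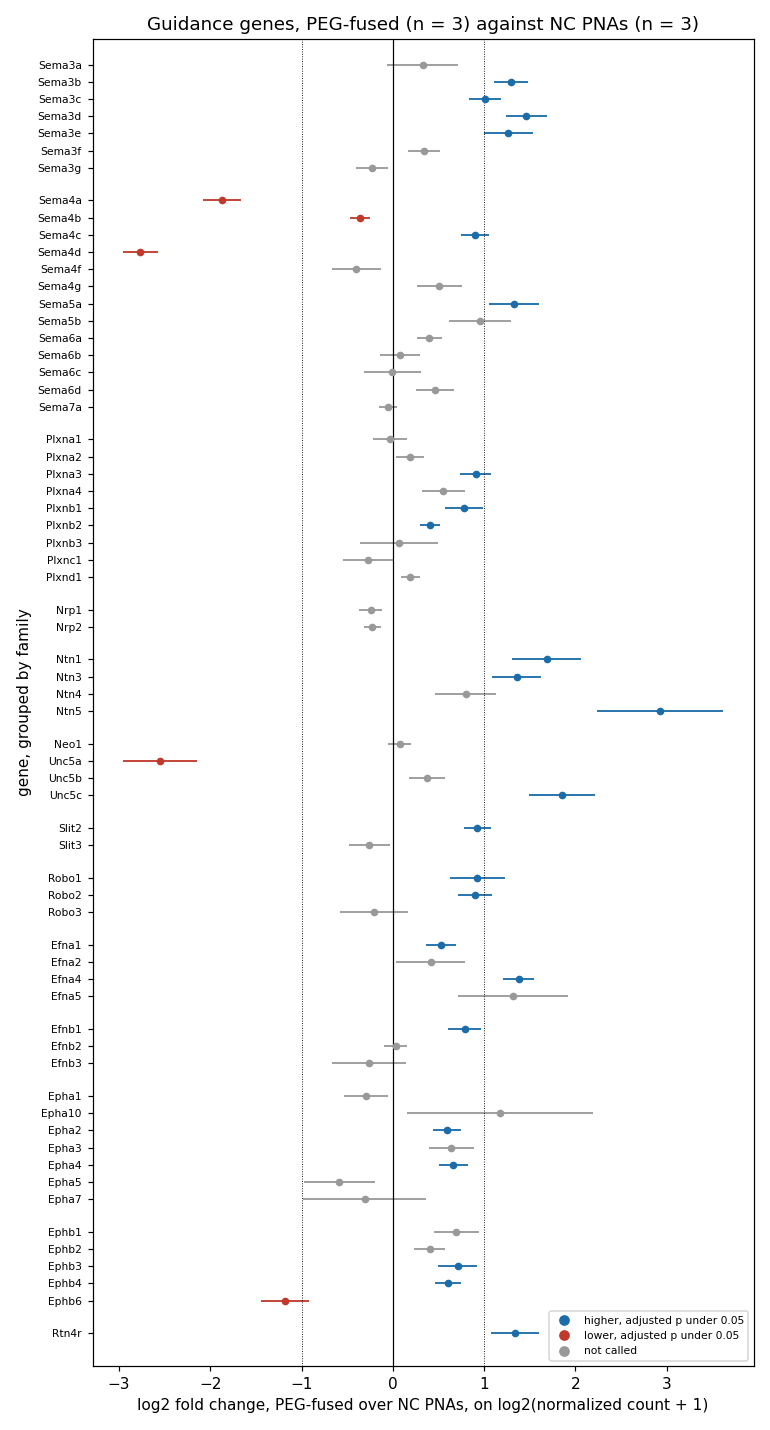
Log2 fold change on log2(normalized count + 1) of each of the 64 guidance genes in PEG-fused (n = 3) over NC PNAs (n = 3), with bars of 1 standard error (SE) and genes grouped by family. The 24 genes called higher (blue) lie right of 0 and the 5 called lower (red) left of it, and dotted lines mark a log2 fold change of -1 and 1.

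The proximal promoters of members with large changes are shown for reference with the changes described below. Reference promoters of RefSeq (GRCr8) gave 1 window for 50 of the 64 members, and the DEG with the largest change in each direction was taken among these for PEG-fused against NC PNAs (Ntn5, Unc5a) and for NC PNAs against Unop nerves (Plxnc1, Sema3d). Sema4d fell more than Unc5a, and Sema5a and Sema4g more than Sema3d, in these comparisons, but they were not among the 50. Each window is the 250 bases before the gene's start, 5′ to 3′ on the gene's strand, and capitals mark a match to one of 4 motifs searched on both strands.
Ntn5, chr1:105293158-105293407, plus strand: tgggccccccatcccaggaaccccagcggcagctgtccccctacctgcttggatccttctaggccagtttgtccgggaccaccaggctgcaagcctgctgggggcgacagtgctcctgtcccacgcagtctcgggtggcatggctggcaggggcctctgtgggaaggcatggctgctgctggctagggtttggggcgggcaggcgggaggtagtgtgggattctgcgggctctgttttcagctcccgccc
Unc5a, chr17:9675664-9675913, minus strand: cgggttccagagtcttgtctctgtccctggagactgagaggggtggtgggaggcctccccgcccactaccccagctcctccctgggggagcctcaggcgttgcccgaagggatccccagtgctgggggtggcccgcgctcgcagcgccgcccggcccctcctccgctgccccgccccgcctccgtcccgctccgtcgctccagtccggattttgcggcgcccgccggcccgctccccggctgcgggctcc
Plxnc1, chr7:31430606-31430855, minus strand: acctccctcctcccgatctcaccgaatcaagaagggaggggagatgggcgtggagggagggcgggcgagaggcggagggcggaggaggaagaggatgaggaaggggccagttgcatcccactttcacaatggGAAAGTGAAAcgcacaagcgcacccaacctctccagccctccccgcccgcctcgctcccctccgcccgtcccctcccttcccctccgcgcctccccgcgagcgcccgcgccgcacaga
Sema3d, chr4:23460972-23461221, minus strand: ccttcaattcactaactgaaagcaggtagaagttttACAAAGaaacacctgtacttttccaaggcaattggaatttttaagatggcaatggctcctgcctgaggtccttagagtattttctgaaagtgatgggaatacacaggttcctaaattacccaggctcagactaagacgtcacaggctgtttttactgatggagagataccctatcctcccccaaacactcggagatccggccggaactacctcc

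The motifs were GAAA repeated after any 2 bases, the type bound by interferon regulatory factors (IRF), TTCNNNGAA, the type bound by STAT factors, TGANTCA, the type bound by AP-1, and ACAAAG, the core bound by SOX factors. The Plxnc1 window held GAAAGTGAAA of the IRF type with its first base 118 before the start, and the Sema3d window held ACAAAG with its first base 214 before it. No motif matched the Ntn5 and Unc5a windows. Over 33360 promoters of this length, 3.41% held the IRF type, 7.68% the STAT type, 6.35% the AP-1 type and 16.3% the SOX type. Of the 52 windows of 51 members, 2, 1, 1 and 7 held them. A match describes the letters of the window and does not show that a factor binds there.

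Class 3 semaphorins, the secreted semaphorins, included 4 of the 11 higher DEGs. Sema3b, Sema3c, Sema3d and Sema3e rose in PEG-fused against NC PNAs, and Sema3a, Sema3f and Sema3g were not called. Sema3d (ENSRNOG00000007202), a secreted guidance cue, was at 523, 808 and 514 in PEG-fused PNAs, 260.0, 227 and 174 in NC PNAs and 3149.9 and 2265 in Unop nerves. The 3 groups did not overlap, and PEG-fused PNAs lay between NC PNAs and Unop nerves. Its log2 fold change was 1.46 ± 0.23 (SE) against NC PNAs (limma adjusted p = 0.00293) and -2.15 ± 0.26 against Unop nerves (limma adjusted p = 0.00017). Sema3b (ENSRNOG00000016512) had the same order, with 7054, 8542 and 6396 in PEG-fused PNAs, 3579, 3271 and 2229 in NC PNAs and 34101 and 40797 in Unop nerves. Its log2 fold change was 1.29 ± 0.19 between the PNAs (limma adjusted p = 0.00228) and -3.65 ± 0.21 in NC PNAs against Unop nerves (limma adjusted p = 2.70e-06).

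Sema3c and Sema3e differed from this order. Sema3c (ENSRNOG00000006526), which guides cardiac neural crest and axons, was at 6091, 6189 and 7115 in PEG-fused PNAs, 3713, 2678 and 3265 in NC PNAs and 7595 and 4975 in Unop nerves. PEG-fused PNAs lay within the range of the Unop nerves and above every NC PNA, with a log2 fold change of 1.02 ± 0.18 over NC PNAs (limma adjusted p = 0.0045). Sema3e (ENSRNOG00000006631), a ligand of plexin-D1 that acts without a neuropilin, was lowest in Unop nerves at 45.1 and 42.5. It was at 349, 407 and 269 in NC PNAs and 810.1, 1173 and 563 in PEG-fused PNAs, again without overlap, and PEG 2 was highest. Fitted on the log2 scale, the fold change over Unop nerves was 4.18 ± 0.30 in PEG-fused PNAs (limma adjusted p = 1.14e-05) and 2.92 ± 0.30 in NC PNAs (limma adjusted p = 5.32e-05). Between the PNAs it was 1.27 ± 0.27 (limma adjusted p = 0.00998), a call that was lost without NC 1 and NC 3 together (1.00, limma adjusted p = 0.115).

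The other class 3 members fell in both kinds of PNA against Unop nerves or were not called. Sema3g, an endothelial semaphorin, was at 465, 400.1 and 543 in PEG-fused PNAs, 647, 423 and 594 in NC PNAs and 1901 and 1809 in Unop nerves. Both PNA groups lay below the Unop nerves and overlapped each other, with log2 fold changes of -1.99 ± 0.20 (limma adjusted p = 6.37e-05) and -1.76 ± 0.20 (limma adjusted p = 8.97e-05) against Unop nerves. Sema3f, a neuropilin-2 ligand, was also called lower in both, at 514 to 707 in PEG-fused PNAs and 460.4 to 539 in NC PNAs beside 1228 and 859 in Unop nerves. Without Unop 1 its call in PEG-fused PNAs was lost (log2 fold change -0.44, limma adjusted p = 0.125). Sema3a, the classical collapsin of sensory axons, ranged from 50.7 to 80.4 in PEG-fused PNAs, 26.9 to 69.5 in NC PNAs and 53.7 to 76.3 in Unop nerves and was called in no comparison.

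**Figure D2:**
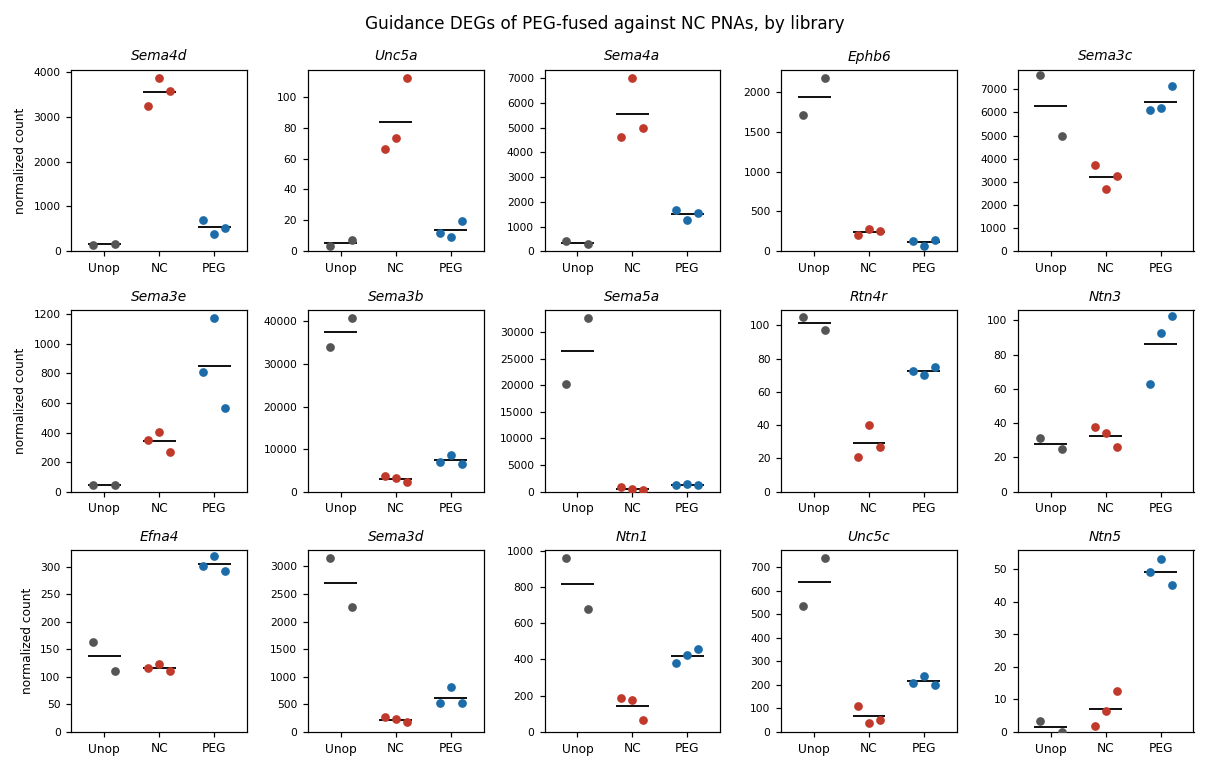
Normalized read counts of the 15 guidance DEGs of PEG-fused against NC PNAs in Unop (grey, n = 2), NC (red, n = 3) and PEG-fused (blue, n = 3) libraries, each panel with its own axis from 0 and bars at the group means. Sema4d, Unc5a and Sema4a are highest in the 3 NC libraries, while in the 11 genes that rose every PEG-fused library lies above every NC library.

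Sema4d and Sema4a, membrane semaphorins that also act as co-stimulatory molecules of lymphocytes and antigen-presenting cells, were lower in PEG-fused than in NC PNAs. Sema4d (ENSRNOG00000013679, CD100), a ligand of plexin-B1 and CD72, was at 693, 385 and 528 in PEG-fused PNAs, 3243, 3857 and 3566 in NC PNAs and 150.2 and 163 in Unop nerves. No groups overlapped, with PEG-fused PNAs between the others. It fell in PEG-fused against NC PNAs (log2 fold change -2.77 ± 0.19, limma adjusted p = 0.000343), and NC PNAs were above Unop nerves by 4.50 ± 0.22 (limma adjusted p = 1.38e-06). Sema4a (ENSRNOG00000019737) was at 1658, 1264 and 1568 in PEG-fused PNAs, 4616, 6999 and 4982 in NC PNAs and 431 and 285 in Unop nerves. The order of the groups was the same and without overlap, with log2 fold changes of -1.87 ± 0.20 between the PNAs (limma adjusted p = 0.000897) and 3.95 ± 0.23 in NC PNAs over Unop nerves (limma adjusted p = 2.76e-06).

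Markers of immune cells moved with both genes. All 8 T cell markers tested were called lower in PEG-fused than in NC PNAs and higher in each PNA group than in Unop nerves. Of 8 macrophage markers, 4 were called lower in PEG-fused than in NC PNAs and 8 higher in each PNA group than in Unop nerves, with sums of 70377 to 81688 in PEG-fused PNAs, 91244 to 103578 in NC PNAs and 12116 to 16868 in Unop nerves. The part of these cells in the levels of Sema4d and Sema4a was not tested. Cd72, the lymphocyte receptor of Sema4d, was at 468, 309 and 429.6 in PEG-fused PNAs, 993, 1746 and 1407 in NC PNAs and 185 and 85.1 in Unop nerves, and it fell in PEG-fused against NC PNAs (log2 fold change -1.76 ± 0.32, limma adjusted p = 0.00532). Timd2, a receptor of Sema4a, was at 64.0, 47.7 and 79.7 in PEG-fused PNAs, 153, 434 and 396 in NC PNAs and 17.2 and 21.3 in Unop nerves, with a log2 fold change of -2.23 ± 0.40 (limma adjusted p = 0.00533). Both receptors had the group order of their ligands, and neither overlapped between the PNAs.

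Sema5a and Sema4g had the largest falls from Unop nerves among the members. Sema5a (ENSRNOG00000011977), a transmembrane semaphorin with thrombospondin repeats, was at 20301 and 32574 in Unop nerves, 1224, 1364 and 1270.2 in PEG-fused PNAs and 799, 434 and 383 in NC PNAs. Every PNA lay far below the Unop nerves and every PEG-fused PNA above every NC PNA. The log2 fold change was -4.32 ± 0.31 in PEG-fused PNAs (limma adjusted p = 1.12e-05) and -5.65 ± 0.31 in NC PNAs (limma adjusted p = 2.14e-06) against Unop nerves, and 1.33 ± 0.28 between the PNAs (limma adjusted p = 0.00921). Sema4g (ENSRNOG00000014650) was at 1776 and 2420.2 in Unop nerves, 90.8, 100.0 and 100.4 in PEG-fused PNAs and 99.2, 57.0 and 55.0 in NC PNAs. Here the PNA groups overlapped through NC 1. The log2 fold change of Sema4g was -4.40 ± 0.27 in PEG-fused PNAs (limma adjusted p = 6.18e-06) and -4.91 ± 0.27 in NC PNAs (limma adjusted p = 2.35e-06) against Unop nerves. Between the PNAs it was 0.51 ± 0.25 (limma adjusted p = 0.154), and without NC 1 it was 0.78 and called (limma adjusted p = 0.0186).

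Most Schwann cell markers were also lower in the PNAs than in Unop nerves. Of 9 tested, 7 were called lower in PEG-fused PNAs and 8 in NC PNAs, 1 (Ngfr) was called higher in each, and 5 were called higher in PEG-fused than in NC PNAs. Of 6 perineurial markers tested, 5 were called lower and 1 (Moxd1) higher in each PNA group than in Unop nerves. The part of these cells in the falls of Sema5a, Sema4g and Sema3b was not tested. The remaining membrane semaphorins that were called lower than in Unop nerves in both PNA groups were Sema5b, Sema6c and Sema6d, and the call of Sema5b in PEG-fused PNAs was lost without Unop 1 (limma adjusted p = 0.0668). Sema6d, a ligand of plexin-A1, was at 3162 and 4364 in Unop nerves, 1085, 1026 and 1079 in PEG-fused PNAs and 1066, 589.5 and 726 in NC PNAs, so that both PNA groups lay below the Unop nerves. Sema6c was at 1236 and 1476 in Unop nerves and 262, 206 and 253 in PEG-fused PNAs, with a log2 fold change of -2.49 ± 0.35 (limma adjusted p = 0.000426). In NC PNAs the log2 fold change of Sema6c was -2.49 ± 0.35 (limma adjusted p = 0.000325), and -3.28 without NC 1 and NC 3 together, which leaves its lowest NC library.

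Other members of classes 4 to 7 changed less. Sema4c, a plexin-B2 ligand, was at 2155, 2791 and 2123 in PEG-fused PNAs, 1155, 1372 and 1238 in NC PNAs and 2723 and 3687 in Unop nerves. Every PEG-fused PNA was above every NC PNA (log2 fold change 0.90 ± 0.15, limma adjusted p = 0.00384), and the call was lost without NC 1 and NC 3 together (0.77, limma adjusted p = 0.0565). Sema4b was called lower in PEG-fused than in NC PNAs by a small margin, at 596 to 655 beside 741 to 918 (log2 fold change -0.36 ± 0.11, limma adjusted p = 0.0411). This call was lost when any 1 of PEG 1, PEG 2, PEG 3, NC 2 or NC 3 was left out (limma adjusted p = 0.0772 to 0.135). Sema7a, the membrane-anchored ligand of plexin-C1, was called higher in both PNA groups than in Unop nerves, at 1208 to 1360.2 in PEG-fused PNAs and 1224 to 1473 in NC PNAs beside 918 and 918. Sema6a was called only in NC PNAs against Unop nerves, with a log2 fold change of -0.64 ± 0.15 (limma adjusted p = 0.0065), and Sema4f and Sema6b were called in no comparison.

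Plexins, the main semaphorin receptors, were called higher between the PNAs in 3 of 9 cases (all genes 15.0%) and lower in none (all genes 13.9%). These were Plxna3, Plxnb1 and Plxnb2, with log2 fold changes of 0.91 ± 0.17, 0.78 ± 0.21 and 0.41 ± 0.11 in PEG-fused over NC PNAs (limma adjusted p = 0.00607, 0.0263 and 0.0252). Plxna3 was at 596, 812 and 634 in PEG-fused PNAs, 357, 333 and 389 in NC PNAs and 703 and 1003 in Unop nerves, without overlap between the PNAs. Plxnb1, the receptor of Sema4d, was at 399, 468 and 375 in PEG-fused PNAs, 293, 205 and 229 in NC PNAs and 971 and 1592 in Unop nerves, and thus lowest in NC PNAs. Leaving out any 1 of PEG 1, PEG 2, PEG 3, NC 2 and NC 3 ended the Plxnb1 call between the PNAs (limma adjusted p = 0.0524 to 0.0965), and leaving out PEG 2, PEG 3 or NC 1 ended that of Plxnb2 (limma adjusted p = 0.064 to 0.0926).

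Plxnc1 rose most of all members in the PNAs against Unop nerves. Plxnc1 (ENSRNOG00000007970), the receptor of Sema7a, was at 47.2 and 22.5 in Unop nerves, 1216, 873 and 1394 in PEG-fused PNAs and 1145, 1606 and 1405 in NC PNAs. Every PNA was far above both Unop nerves, and the PNA groups overlapped. On the log2 scale the fold change over Unop nerves was 5.08 ± 0.32 in PEG-fused PNAs (limma adjusted p = 6.15e-06) and 5.35 ± 0.32 in NC PNAs (limma adjusted p = 3.02e-06), and between the PNAs it was -0.27 (95% interval -0.92 to 0.38, limma adjusted p = 0.513). The macrophage markers given above were called higher in both PNA groups as well, and their part in the Plxnc1 level was not tested. Plxna1, at 5410.1 to 5902 in PEG-fused PNAs and 4146 to 6920.5 in NC PNAs beside 1556 and 1747 in Unop nerves, rose in both (log2 fold change 1.78 ± 0.21 and 1.81 ± 0.21, limma adjusted p = 0.000146 and 9.57e-05). Plxnb2 rose by 1.56 ± 0.12 and 1.15 ± 0.12 on the log2 scale (limma adjusted p = 1.74e-05 and 6.15e-05), and Plxnd1, the Sema3e receptor, by 0.72 ± 0.12 and 0.53 ± 0.12 (limma adjusted p = 0.00118 and 0.00513).

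Plxnb3 and Plxnb1 went the other way. Plxnb3, the receptor of Sema5a, was at 1845 and 3589.6 in Unop nerves, 366, 395 and 556 in PEG-fused PNAs and 820.3, 304 and 278 in NC PNAs. The Unop nerves lay above every PNA, and the NC PNAs were spread on both sides of the PEG-fused PNAs. The log2 fold change of Plxnb3 was -2.57 ± 0.48 in PEG-fused PNAs and -2.64 ± 0.48 in NC PNAs against Unop nerves (limma adjusted p = 0.0019 and 0.00135), and that of Plxnb1 was -1.59 ± 0.24 and -2.37 ± 0.24 (limma adjusted p = 0.00058 and 4.43e-05). Plxna2 and Plxna4 were called in no comparison, at 660.0 to 857 and 79.7 to 105 in PEG-fused PNAs.

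Neuropilins bind class 3 semaphorins and vascular endothelial growth factor, and neither was called between the PNAs. Nrp1 was at 6325, 5958 and 6712 in PEG-fused PNAs, 6369, 7819.8 and 8429 in NC PNAs and 2857 and 2368 in Unop nerves. Both PNA groups were above the Unop nerves, by 1.28 ± 0.14 and 1.53 ± 0.14 on the log2 scale (limma adjusted p = 0.000102 and 2.68e-05). Between the PNAs the log2 difference of Nrp1 was -0.24 (95% interval -0.53 to 0.04, limma adjusted p = 0.174), and without NC 1 it was -0.36 and called (limma adjusted p = 0.0462). Nrp2 was at 2890.0, 3327 and 2950.2 in PEG-fused PNAs, 3254, 3753 and 3697 in NC PNAs and 3529.8 and 3802 in Unop nerves, with a log2 difference of -0.22 between the PNAs (95% interval -0.43 to -0.01).

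Netrins, secreted laminin-related cues, were called higher in PEG-fused than in NC PNAs for 3 of 4 members (all genes 15.0%). Of these 3, Ntn5 met the minimum count only through PEG-fused PNAs, so its place in this count partly follows from that selection. Ntn1 (ENSRNOG00000003947), the founding attractant and repellent of the family, was at 378, 423 and 457 in PEG-fused PNAs, 189, 176 and 64.6 in NC PNAs and 961 and 678 in Unop nerves. NC 3 was lowest, and all PEG-fused PNAs lay between the NC PNAs and the Unop nerves. Its log2 fold change was 1.69 ± 0.38 between the PNAs (limma adjusted p = 0.0127) and -2.63 ± 0.42 in NC PNAs against Unop nerves (limma adjusted p = 0.000702). In PEG-fused PNAs against Unop nerves it was -0.95 (95% interval -1.91 to 0.02, limma adjusted p = 0.0852).

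Ntn3 and Ntn5 were highest in PEG-fused PNAs. Ntn3 (ENSRNOG00000006970) was at 63.0, 92.6 and 102 in PEG-fused PNAs, 37.5, 34.4 and 26.0 in NC PNAs and 31.1 and 25.0 in Unop nerves. Every PEG-fused PNA was above every other library, and NC PNAs overlapped with Unop nerves. The log2 fold change was 1.36 ± 0.27 over NC PNAs (limma adjusted p = 0.00828) and 1.56 ± 0.31 over Unop nerves (limma adjusted p = 0.00257), and the call over NC PNAs was lost without NC 1 and NC 3 together (1.27, limma adjusted p = 0.0644). Ntn5 (ENSRNOG00000021016), a netrin described at the motor exit points of the spinal cord, had few reads outside PEG-fused PNAs. It was at 49.1, 53.3 and 45.0 in PEG-fused PNAs, 1.79, 6.45 and 12.5 in NC PNAs and 3.22 and 0 in Unop nerves. The PEG-fused PNAs did not overlap with any other library, and the log2 fold change was 2.93 ± 0.69 over NC PNAs (limma adjusted p = 0.0155). Outside PEG-fused PNAs only NC 3 reached the minimum count, so Ntn5 was tested because it was high in PEG-fused PNAs, and its difference and its place among the higher DEGs partly follow from that selection. Epha10 was the only other member that met the minimum through 1 group, also PEG-fused PNAs.

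The size of the Ntn5 difference depended on the pseudocount and on single libraries with few reads. With a pseudocount of 8 in place of 1, the log2 fold change was 2.00 over NC PNAs (limma adjusted p = 0.0021) and 2.59 over Unop nerves (limma adjusted p = 0.000221). Without PEG 2 the call over NC PNAs was lost (2.87, limma adjusted p = 0.0564), without NC 1 the log2 fold change was 2.32 (limma adjusted p = 0.0321), and without NC 1 and NC 3 together it was 2.75 (limma adjusted p = 0.0556). Against Unop nerves, 158 reads in 3 PEG-fused libraries stood beside 3 reads in 2 Unop libraries, a ratio of 28.4 per unit of library size with an exact 95% interval of 9.53 to 139 that covers counting error only. The fitted log2 fold change over Unop nerves was 4.61 ± 0.77 (limma adjusted p = 0.00112), 5.64 without Unop 1 and 3.57 without Unop 2. In NC PNAs against Unop nerves Ntn5 was not called, with a log2 difference of 1.67 (limma adjusted p = 0.0874), and it was called without NC 1 or without Unop 1 (2.29 and 2.71, limma adjusted p = 0.0209 and 0.0274).

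Ntn4, a basement membrane netrin, fell in both PNA groups. It was at 2373 and 2329 in Unop nerves, 577, 1476 and 624 in PEG-fused PNAs and 389.6, 438 and 591 in NC PNAs. PEG 2 stood well above the other PNAs, and PEG 1 lay below NC 3. In the limma fit the log2 fold change was -1.54 ± 0.37 in PEG-fused PNAs (limma adjusted p = 0.00774) and -2.33 ± 0.37 in NC PNAs (limma adjusted p = 0.000713) against Unop nerves. Between the PNAs it was 0.80 (95% interval 0.03 to 1.57, limma adjusted p = 0.11), while DESeq2 on whole reads called it higher in PEG-fused PNAs (log2 fold change 0.92, adjusted p = 0.0247).

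Netrin receptors differed from each other in direction. Unc5a (ENSRNOG00000059840), a repulsion and dependence receptor, was at 66.1, 73.2 and 112 in NC PNAs, 12, 9.35 and 19.7 in PEG-fused PNAs and 3.22 and 7.50 in Unop nerves. The groups did not overlap, with NC PNAs far above the rest. It fell in PEG-fused against NC PNAs (log2 fold change -2.55 ± 0.41, limma adjusted p = 0.00325), and NC PNAs were above Unop nerves by 3.78 ± 0.46 (limma adjusted p = 0.000135), or by 2.77 with a pseudocount of 8. In PEG-fused PNAs over Unop nerves it was 1.23 ± 0.46 (limma adjusted p = 0.0457), and this call was lost with edgeR (adjusted p = 0.0635), with DESeq2 (adjusted p = 0.0807), with a pseudocount of 8 (0.69, limma adjusted p = 0.0854) and without PEG 1, PEG 3 or Unop 1 (limma adjusted p = 0.0792 to 0.273).

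Unc5c had the opposite order. Unc5c (ENSRNOG00000029071), another repulsion receptor, was at 534 and 739 in Unop nerves, 206, 237 and 201 in PEG-fused PNAs and 109.02, 36.6 and 50.2 in NC PNAs. No groups overlapped, and NC 1 lay above the other NC PNAs. It rose in PEG-fused against NC PNAs by 1.85 ± 0.36 on the log2 scale (limma adjusted p = 0.0073), and by 2.51 without NC 1 and NC 3 together, which leaves its lowest NC library. Against Unop nerves the log2 fold change was -3.40 ± 0.40 in NC PNAs (limma adjusted p = 0.000123) and -1.55 ± 0.40 in PEG-fused PNAs (limma adjusted p = 0.0105), and the last call was lost without Unop 2 (-1.32, limma adjusted p = 0.0828). Neo1, the neogenin gene, was at 955 to 1066 in PEG-fused PNAs, 812 to 1133 in NC PNAs and 1513 to 1689.7 in Unop nerves and was called lower in both PNA groups than in Unop nerves. Unc5b was called in no comparison, and Dcc and Unc5d stayed below the minimum count.

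Slit2, a repellent of axons and of migrating leukocytes, fell in the PNAs and fell most in NC PNAs. Slit2 (ENSRNOG00000003840) was at 4849.8 and 6337 in Unop nerves, 972, 1321 and 1137 in PEG-fused PNAs and 676, 536 and 585 in NC PNAs. The groups did not overlap, and the log2 fold change against Unop nerves was -2.29 ± 0.17 in PEG-fused PNAs (limma adjusted p = 1.38e-05) and -3.22 ± 0.17 in NC PNAs (limma adjusted p = 1.89e-06). PEG-fused PNAs were above NC PNAs by 0.93 ± 0.15 on the log2 scale (limma adjusted p = 0.00364). Slit3 was at 1188, 1356 and 1339 in PEG-fused PNAs, 1009, 1894 and 1921 in NC PNAs and 1259 and 1336 in Unop nerves, and was not called (log2 difference between the PNAs -0.26, 95% interval -0.78 to 0.27). NC 1 was the lowest NC library, and without it Slit3 was called lower in PEG-fused PNAs (-0.56, limma adjusted p = 0.00595).

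The Slit receptors Robo1 and Robo2 were highest in PEG-fused PNAs. Robo2 (ENSRNOG00000029598) was at 323, 381 and 377 in PEG-fused PNAs, 147, 214 and 227 in NC PNAs and 131 and 130.1 in Unop nerves, without overlap between any groups. Its fold change on the log2 scale was 0.90 ± 0.19 over NC PNAs (limma adjusted p = 0.00943) and 1.45 ± 0.21 over Unop nerves (limma adjusted p = 0.000485). In NC PNAs over Unop nerves it was 0.56 ± 0.21 (limma adjusted p = 0.0427), a call lost without NC 2, NC 3, Unop 1 or Unop 2 (limma adjusted p = 0.101 to 0.123). Robo1 was at 125, 192 and 145 in PEG-fused PNAs, 53.6, 89.3 and 104 in NC PNAs and 60.1 and 86.3 in Unop nerves. Its call over NC PNAs (0.93 ± 0.30, limma adjusted p = 0.049) was lost without any 1 of PEG 1, PEG 2, PEG 3, NC 1 or NC 2 (limma adjusted p = 0.0665 to 0.165). Robo3 was called lower than in Unop nerves in PEG-fused PNAs (-1.23 ± 0.42, limma adjusted p = 0.0337), a call lost without PEG 2, PEG 3, Unop 1 or Unop 2 (limma adjusted p = 0.072 to 0.163).

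Ephrins are membrane-bound ligands of Eph receptor tyrosine kinases, A-type ephrins being lipid-anchored and B-type ephrins transmembrane. Of 7 ephrin genes measured, Efna1, Efna4 and Efnb1 were called higher in PEG-fused than in NC PNAs (all genes 15.0%). Efna4 (ENSRNOG00000020588) was at 300.3, 319.7 and 292 in PEG-fused PNAs, 115, 123 and 111 in NC PNAs and 163 and 111 in Unop nerves. Every PEG-fused PNA was above every other library, and NC PNAs overlapped with Unop nerves. The log2 fold change was 1.38 ± 0.17 over NC PNAs (limma adjusted p = 0.00135) and 1.17 ± 0.19 over Unop nerves (limma adjusted p = 0.00106). Efnb1 was at 1756, 2074 and 1949 in PEG-fused PNAs, 1444, 1034 and 924 in NC PNAs and 2269.8 and 1639.7 in Unop nerves, so that PEG-fused PNAs lay within the range of Unop nerves. Its log2 fold change over NC PNAs was 0.79 ± 0.18 (limma adjusted p = 0.015), and the call was lost without PEG 2 (limma adjusted p = 0.0594).

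The remaining ephrins had smaller or less stable differences. Efna1 was above NC PNAs by 0.53 ± 0.16 on the log2 scale (limma adjusted p = 0.0441), a call lost without any 1 of PEG 1, PEG 2, PEG 3, NC 1 or NC 2 (limma adjusted p = 0.0818 to 0.129). Efna2 was at 97.3, 80.4 and 82.6 in PEG-fused PNAs, 67.9, 71.0 and 55.9 in NC PNAs and 42.9 and 13.8 in Unop nerves, and it rose over Unop nerves by 1.78 ± 0.42 and 1.37 ± 0.42 (limma adjusted p = 0.00665 and 0.02). The Unop nerves differed from each other, and without Unop 2 these values were 0.99 (limma adjusted p = 0.0213) and 0.58 (limma adjusted p = 0.107), and without Unop 1 they were 2.57 and 2.15. Efna5, the topographic repellent of the visual system, was at 47.2 and 37.5 in Unop nerves, 10.2, 9.35 and 10.3 in PEG-fused PNAs and 2.68, 10.8 and 0.965 in NC PNAs, and was called lower in both than in Unop nerves. At these counts the Efna5 call in PEG-fused PNAs was lost without any 1 PEG or Unop library (limma adjusted p = 0.07 to 0.144), and its log2 fold change in NC PNAs (-3.29 ± 0.68, limma adjusted p = 0.00278) was -4.0 without NC 2 and -2.04 with a pseudocount of 8. Efnb2 was called in no comparison, and Efnb3, at 19.5, 8.41 and 18.8 in PEG-fused PNAs and 45.1 and 37.5 in Unop nerves, was called lower in PEG-fused PNAs only, a call lost without PEG 2, Unop 1 or Unop 2 (limma adjusted p = 0.0637 to 0.118).

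Eph receptors were called higher in PEG-fused than in NC PNAs for 4 of 12 members (all genes 15.0%) and lower for Ephb6 (all genes 13.9%). The 4 were Epha2, Epha4, Ephb3 and Ephb4, with log2 fold changes of 0.59 ± 0.15, 0.66 ± 0.16, 0.71 ± 0.21 and 0.61 ± 0.14 (limma adjusted p = 0.022, 0.0168, 0.0382 and 0.0139). Each was lost without at least 1 library: Epha2 without PEG 1, PEG 3, NC 2 or NC 3 (limma adjusted p = 0.0575 to 0.0831), Epha4 without PEG 1 or PEG 2 (0.0604 and 0.0668), Ephb3 without PEG 1, PEG 2, PEG 3, NC 2 or NC 3 (0.0673 to 0.127) and Ephb4 without PEG 3 (0.0507). Ephb4, the venous receptor of ephrin-B2, was at 1008, 907 and 1007 in PEG-fused PNAs, 707, 533 and 693 in NC PNAs and 1440.2 and 1156 in Unop nerves, in which the groups did not overlap. Epha4, a receptor of both ephrin types, was at 347, 346 and 288 in PEG-fused PNAs, 234, 169 and 218 in NC PNAs and 300.5 and 294 in Unop nerves, with NC PNAs lowest.

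Ephb6 was the Eph receptor with the largest differences. Ephb6 (ENSRNOG00000014367), a receptor without kinase activity that is also expressed by T cells, was at 1703 and 2169 in Unop nerves, 200.2, 287 and 259 in NC PNAs and 127, 72.0 and 138 in PEG-fused PNAs. No groups overlapped, and PEG-fused PNAs were lowest. On the log2 scale the fold change against Unop nerves was -4.14 ± 0.29 in PEG-fused PNAs (limma adjusted p = 1.08e-05) and -2.96 ± 0.29 in NC PNAs (limma adjusted p = 4.34e-05), and it was -1.18 ± 0.26 between the PNAs (limma adjusted p = 0.0122). Among the 64 members Ephb6 was the only one called lower in all 3 comparisons. Ephb1 was called lower than in Unop nerves in both PNA groups, at 71.4 to 80.4 in PEG-fused PNAs and 36.6 to 64.3 in NC PNAs beside 153 and 184. Epha1 was called higher in both, at 91.8 to 108.4 and 85.8 to 144 beside 50.4 and 46.3, and its call in PEG-fused PNAs was lost without Unop 2 (limma adjusted p = 0.058). Epha5 was called lower in PEG-fused PNAs relative to Unop nerves, at 6.49, 7.48 and 6.57 beside 31.1 and 17.5, a call lost without Unop 1 (limma adjusted p = 0.085). Epha3, Epha7, Epha10 and Ephb2 were called in no comparison, and Epha3 was at 233, 273 and 384 in PEG-fused PNAs beside 147, 171 and 254 in NC PNAs (log2 difference 0.64, 95% interval 0.07 to 1.22).

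Rtn4r (ENSRNOG00000030920) encodes the Nogo receptor, which binds the myelin inhibitors of axon growth. It was at 72.3, 70.1 and 75 in PEG-fused PNAs, 20.6, 39.8 and 27.0 in NC PNAs and 105 and 97.6 in Unop nerves. The groups did not overlap, and PEG-fused PNAs lay between the others. Its log2 fold change was 1.34 ± 0.26 over NC PNAs (limma adjusted p = 0.00748) and -1.81 ± 0.29 in NC PNAs against Unop nerves (limma adjusted p = 0.000747), and -0.48 in PEG-fused PNAs against Unop nerves (95% interval -1.15 to 0.20, limma adjusted p = 0.195). Without NC 1 and NC 3 together the call over NC PNAs was lost (0.85, limma adjusted p = 0.069). Its ligand genes Mag and Omg, both of myelin, were at 3956 and 3879 and 141 and 105 in Unop nerves. In PEG-fused PNAs they were at 11.1, 13.1 and 61.9 and at 2.78, 2.80 and 10.3, and in NC PNAs at 336, 28.0 and 12.5, with NC 1 far above the others, and at 7.15, 6.45 and 8.68. Rtn4, the gene of its ligand Nogo, was at 6485, 6916 and 6095 in PEG-fused PNAs, 11056, 4611 and 7038 in NC PNAs and 10695 and 9044 in Unop nerves and was called in no comparison (limma adjusted p = 0.12 to 0.75).

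**Figure D3:**
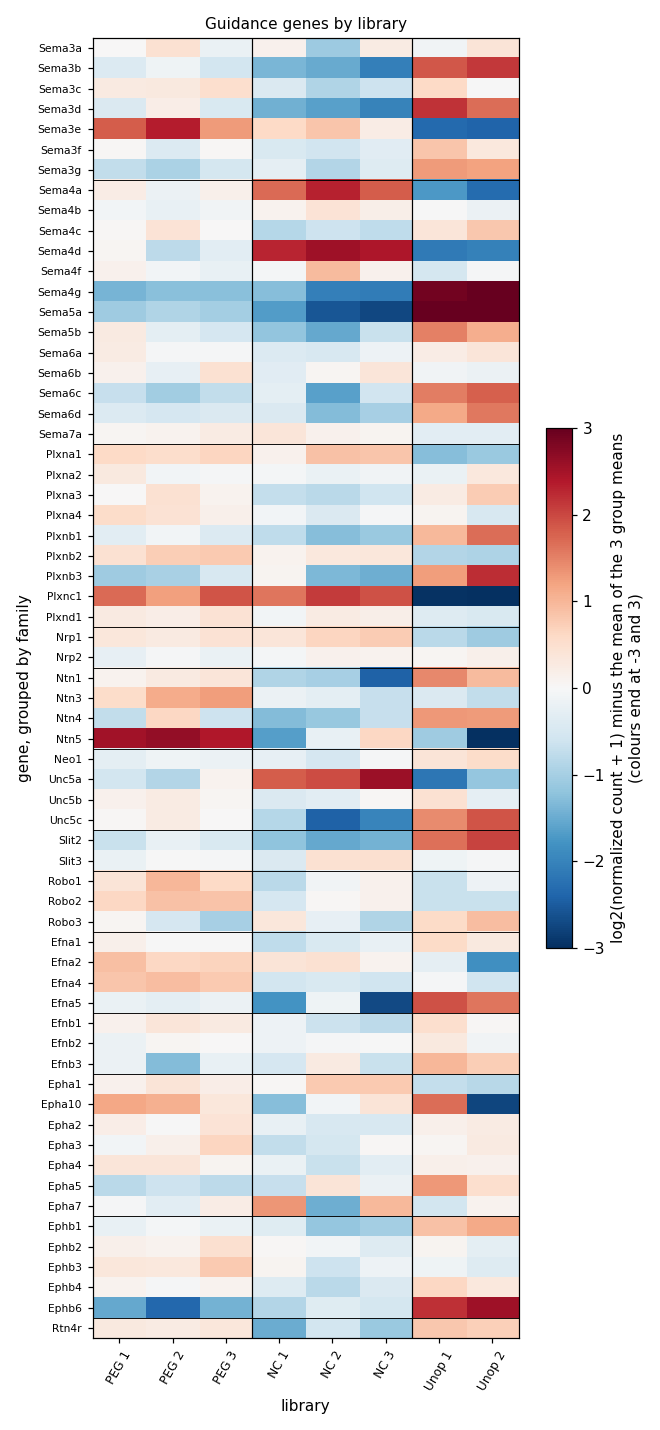
Log2(normalized count + 1) of the 64 guidance genes (rows, grouped by family) in the 8 libraries (columns) minus the mean of the 3 group means, from blue (lower) to red (higher), with colours ending at -3 and 3. Sema4g and Sema5a are darkest red in both Unop nerves and Plxnc1 darkest blue, and Ntn5 is red in all 3 PEG-fused PNAs.

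Against Unop nerves the members as a whole moved down in NC PNAs. In NC PNAs 13 of 64 members (20.3%) were called higher and 29 (45.3%) lower, beside 32.2% and 32.3% of all genes tested, and the median log2 fold change was -0.56 beside 0.02 over all genes. In PEG-fused PNAs 18 (28.1%) were called higher and 21 (32.8%) lower, beside 29.1% and 28.6% of all genes, with a median of -0.03 beside 0.01. Of the ligands, 18 of 33 were called lower in NC PNAs and 13 in PEG-fused PNAs, and of the receptors, 11 of 31 and 8. By the DEG threshold, 10 members were higher and 22 lower in NC PNAs (all genes 19.6% and 19.0%), and 15 and 19 in PEG-fused PNAs (all genes 16.7% and 15.6%). These comparisons share the Unop nerves, and the difference between them is the comparison of PEG-fused with NC PNAs given above. By their calls, 10 members were lower in NC PNAs than in both other groups and not called between PEG-fused PNAs and Unop nerves: Efna1, Efnb1, Epha2, Epha4, Ephb4, Ntn1, Plxna3, Rtn4r, Sema3c and Sema4c. A missing call between PEG-fused PNAs and Unop nerves does not show equal levels, and DESeq2 called Ephb4, Ntn1 and Sema4c lower in PEG-fused PNAs (adjusted p = 0.0345, 0.0229 and 0.0375). In NC PNAs against Unop nerves the call of Efnb1 was lost without Unop 1 (limma adjusted p = 0.0868), that of Epha2 without Unop 2 (0.0698) and that of Epha4 without NC 2, Unop 1 or Unop 2 (0.0652 to 0.0979). Another 5 members, Efna4, Ephb3, Ntn3, Ntn5 and Robo1, were called higher in PEG-fused PNAs than in both other groups, with no call between NC PNAs and Unop nerves, and 13 members were called in no comparison. Ntn5 met the minimum count only through PEG-fused PNAs. The shares of all genes tested with these patterns of calls were not counted, so the patterns are descriptions of the members only. Over Unop nerves the call of Ephb3 was lost without PEG 3, Unop 1 or Unop 2 (limma adjusted p = 0.0521 to 0.141) and that of Robo1 without PEG 2, PEG 3 or Unop 1 (0.0517 to 0.154).

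**Figure D4:**
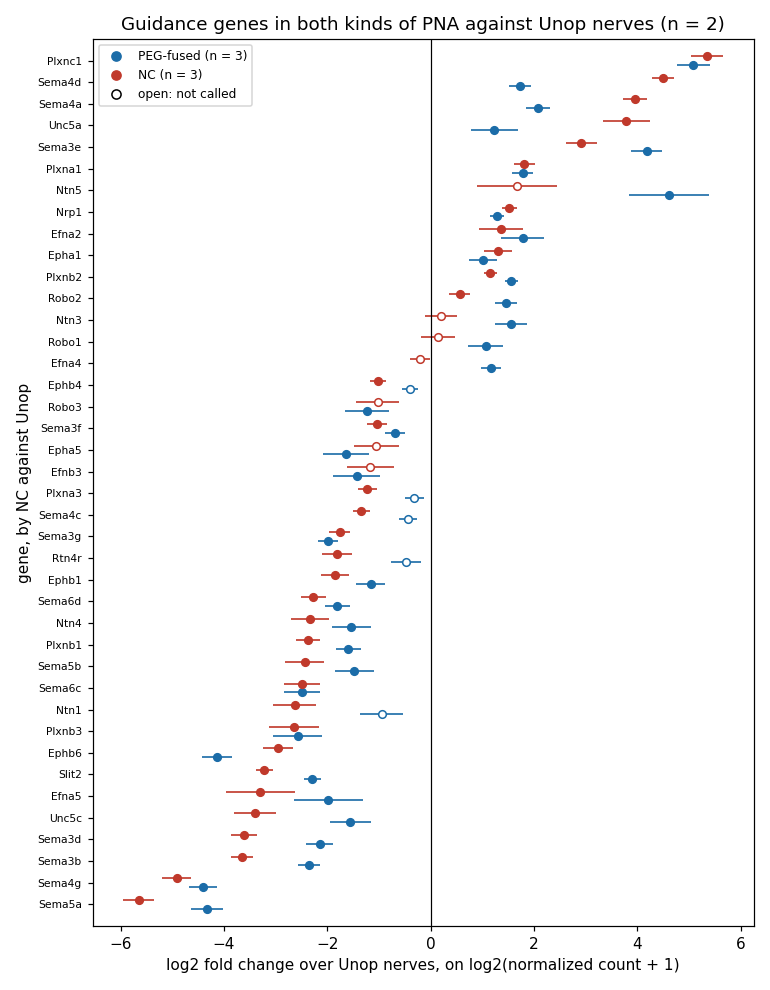
Log2 fold change on log2(normalized count + 1) over Unop nerves (n = 2) in PEG-fused PNAs (blue, n = 3) and NC PNAs (red, n = 3) for the 40 guidance genes that were DEGs in either comparison, with bars of 1 SE and open points for values that were not called. Plxnc1 lies at the top right in both, Sema5a and Sema4g at the bottom left, and the points of Sema4d, Sema4a and Unc5a are farther right in NC PNAs.

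Intracellular effectors of guidance receptors were called in both directions. Of 54 tested, 15 (27.8%) were called higher and 9 (16.7%) lower in PEG-fused than in NC PNAs, beside 15.0% and 13.9% of all genes, with a median log2 fold change of 0.16. Srgap1, a GTPase-activating protein bound by Robo receptors, rose and was at 192, 194 and 202 in PEG-fused PNAs, 76.0, 66.7 and 88.7 in NC PNAs and 78.3 and 124 in Unop nerves (log2 fold change 1.34 ± 0.21, limma adjusted p = 0.00316). Dpysl5, a collapsin response mediator, was at 38.9, 50.5 and 68.5 in PEG-fused PNAs and 25.0, 26.9 and 14.5 in NC PNAs. Unop nerves were above every PNA, at 162 and 203. Between the PNAs the log2 fold change of Dpysl5 was 1.22 ± 0.32 (limma adjusted p = 0.0224). Evl and Vasp, actin regulators of the Ena/VASP family, and Pak1, a kinase downstream of Rac, fell, with log2 fold changes of -1.92 ± 0.22, -1.05 ± 0.14 and -1.17 ± 0.13 (limma adjusted p = 0.00108, 0.00164 and 0.000979). Evl was at 1561, 989 and 1213 in PEG-fused PNAs and 3877, 6350.3 and 4153 in NC PNAs, where NC 2, the library with the highest T cell marker sum, was highest. The part of T cells in the Evl level was not tested.

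Other cues and co-receptors of the pathway, 40 genes tested, were called higher in 15 cases (37.5%, all genes 15.0%) and lower in 7 (17.5%, all genes 13.9%) in PEG-fused against NC PNAs, with a median log2 fold change of 0.34. Nrcam, an adhesion molecule and co-receptor of neuropilins, was at 3978, 4103 and 4131 in PEG-fused PNAs, 837, 864 and 1017 in NC PNAs and 2044 and 3168 in Unop nerves. No groups overlapped, and the log2 fold change over NC PNAs was 2.17 ± 0.16 (limma adjusted p = 0.000343). Shh, the hedgehog ligand and a guidance cue of commissural axons, was at 348, 214 and 390.2 in PEG-fused PNAs, 64.3, 28.0 and 37.6 in NC PNAs and 413 and 366 in Unop nerves, and rose over NC PNAs by 2.88 ± 0.33 (limma adjusted p = 0.00102). Flrt3, a ligand of UNC5 receptors, rose by 1.26 ± 0.14 (limma adjusted p = 0.000906), Ngfr, a co-receptor of the Nogo receptor, by 1.45 ± 0.18 (limma adjusted p = 0.00135) and Met, a partner of plexin-B receptors, by 1.16 ± 0.16 (limma adjusted p = 0.00178). Cxcl12, a chemokine, fell with a log2 fold change of -0.80 ± 0.16 (limma adjusted p = 0.0078). Against Unop nerves 13 of these 40 genes (32.5%) were called higher and 13 lower in PEG-fused PNAs, near the 29.1% and 28.6% of all genes, and 9 (22.5%) and 19 (47.5%) in NC PNAs, beside 32.2% and 32.3%.

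The minimum count left out 6 symbols. Dcc, the main netrin receptor of axons, stayed at 0 to 4.69, Epha8 at 0 to 0.965, Robo4 at 0 to 2.81 and Unc5d at 0 to 5.61 in all libraries. Robo4 is an endothelial receptor. The 9 endothelial markers measured summed to 14649 to 18800 in PEG-fused PNAs, 13684 to 17434 in NC PNAs and 23670 to 25445 in Unop nerves. Of these markers, 1 was at 0 in every library, and why Robo4 had so few reads was not tested. Slit1 and Efna3 reached the minimum in 1 library each, Slit1 in NC 2 (10.8) and Efna3 in Unop 1 (11.8). Just inside the minimum, Epha10 reached it in PEG 1, PEG 2 and Unop 1 (13.9, 13.1 and 20.4) with 0 in Unop 2.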

How the data were processed

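RNA-seq libraries of PEG-fused (3) and NC (3) PNAs and of Unop nerves (2) were grouped by their titles. The authors prepared stranded mRNA libraries, aligned paired-end reads with Tophat2 to Rnor 6.0 and scaled HTSeq-count gene counts with the size factors of DESeq2. The signal deposited by the authors is this normalized read count. The strand setting of the counting is not given in the sources used here. Deposited tables of fold changes and p-values for each pair of groups were not used.

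Genes with a normalized count of 10 or more in at least 2 libraries were tested with limma 3.58.1 (trend, empirical Bayes with 3.27 prior degrees of freedom, R 4.3.3) on log2(normalized count + 1) in a model of the 3 group means, which understates the change of low genes. Adjusted p-values are from the Benjamini-Hochberg method over 16478 genes. Calls needed an adjusted p under 0.05, and DEGs also a log2 fold change above 1 or below -1. All values (100.0%) were whole reads within 0.001 after division by 1 constant per library (size factors 0.800 to 1.12). On these reads edgeR 4.0.16 (quasi-likelihood, TMM factors) and DESeq2 1.42.0 were alternatives, beside other pseudocounts, filters, a replicate block, fits to the 2 groups compared and leaving out each library. All tools were run on simulated counts with the same spread for all genes and strong changes placed only in genes with many reads. That run does not cover members with few reads or a wide spread within a group. The members, lists, promoters and motifs were chosen with earlier results of these data known. The genes named with full values were the DEGs of each comparison, at most 12 in each direction by adjusted p, and partners of the same families or lists. Promoter sequences are from RefSeq (GRCr8), a build other than that of the counts. Gene symbols are those paired with Ensembl identifiers in the deposited table.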

Additional observations from a re-analysis of the deposited data

How the results depend on the processing

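The counts of guidance genes called in PEG-fused against NC PNAs were 24 higher and 5 lower, and they were 21 to 26 and 4 to 5 with edgeR, DESeq2, TMM factors, pseudocounts of 0.5 and 8, other filters, robust moderation and a fit to the 2 groups alone. By definition the DEG threshold reduced the higher genes to 11. Leaving out 1 library at a time gave 16 to 24 higher and 4 to 7 lower in PEG-fused against NC PNAs, 15 to 17 and 17 to 20 in PEG-fused PNAs against Unop nerves, and 11 to 17 and 27 to 30 in NC PNAs against Unop nerves. In PEG-fused against NC PNAs, all genes called higher fell from 2477 to 1363 without PEG 2 and to 1596 without PEG 3, and those called lower from 2286 to 1390 without PEG 2, with fewer libraries fitted. Leaving out single PEG or NC libraries, 8.27% to 13.6% of all genes were called higher and 8.44% to 12.7% lower in this comparison. Of the 24 higher and 5 lower guidance genes, 14 and 4 stayed called under every alternative fixed at the start, as did 14 of 18 and 14 of 21 in PEG-fused PNAs and 11 of 13 and 26 of 29 in NC PNAs against Unop nerves. No called guidance gene changed sign. The share of all called genes that stayed called under every alternative was not counted, so these counts describe the members only. In PEG-fused against NC PNAs the calls of Efna1, Robo1 and Sema4b were also lost with no filter, and those of Efna1, Robo1 and Ephb3 in a fit to the 2 groups alone. Against Unop nerves the calls lost with no filter were those of Unc5a in PEG-fused PNAs and Robo2 in NC PNAs, and those lost in a fit to the 2 groups alone were Unc5a in PEG-fused PNAs and Efna2, Epha4 and Robo2 in NC PNAs. The stricter filter ended that of Unc5a. A pairing by replicate number was not clear. Deviations from the group mean correlated across genes at 0.11 for PEG 1 with NC 1, 0.11 for PEG 2 with NC 2 and -0.05 for PEG 3 with NC 3. With the Unop nerve of the same number they correlated at 0.15 for PEG 1, 0.14 for PEG 2, 0.15 for NC 1 and 0.16 for NC 2. The deviations of the 2 Unop nerves from their mean are mirror images, so these values are not independent of each other. PEG 3 and NC 3 each correlated best with another number. With the replicate number as a block, 23 guidance genes were called higher and 4 lower in PEG-fused against NC PNAs, 17 and 22 in PEG-fused PNAs against Unop nerves, and 12 and 29 in NC PNAs against Unop nerves. Without NC 1 and NC 3 together, NC PNAs against Unop nerves gave 15 higher and 30 lower. With 2 to 3 libraries per group and few reads on Ntn5, Unc5a, Efna5, Epha5 and Epha10, small differences of these genes were not detectable at this depth.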
